A study of Mus musculus with 1536 samples.

Results

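Serotonin neurons with high and low expression of immediate-early genes (IEGs) were compared within plates of the single-cell RNA-seq data. In each of 11 plates, cells were ranked by the mean ln(CPM+1), with CPM the reads of a gene scaled to a fixed total of reads per cell, of Fos, Fosb, Jun, Junb, Egr1, Ier2, Nr4a1, Arc, Npas4 and Dusp1. The cells of a plate were divided by 3, rounded down, and that number of cells at the top and at the bottom of the rank were then set against each other for all other genes. The high and low cells were chosen by these 10 genes, so the levels of the 10 genes in this ranking are a description and carry no test. The sets hold 232 high and 232 low cells, 464 of the 709 cells of the 11 plates and of the 999 cells of the series, and the other 245 cells of the plates form a middle set.

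All cells came from mice 40 to 45 days old on a C57BL/6J background, with Cre driven by the serotonin transporter gene Sert and the Cre-dependent tdTomato reporter Ai14. Single tdTomato-positive cells were sorted into plates and made into Smart-seq2 libraries, so a cell that used Sert only earlier in life could also enter the sort. The labels name no stimulus or treatment. The study's reagents include blockers of neuronal activity (tetrodotoxin, kynurenic acid, D-AP5) and of transcription (actinomycin D), which can hold down IEG RNA, but its methods do not say at which step they were used, and their part in the score was not tested. The 11 plates are labelled as the whole dorsal raphe, and the methods add that the dissection took in the median raphe. The other 5 plates, with 290 cells, hold the principal dorsal raphe (pDR) alone. No label ties a cell or plate to an animal. The 11 plates came from 8 brains, so some plates share animals and the 11 are not independent replicates. The p-values measure the spread between plates and may be too small for the spread between animals.

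IEGs are the genes that a cell transcribes first after a stimulus, without the need for new protein. In neurons, calcium entry and kinase cascades act on factors that are already present, such as CREB and SRF, and these turn on transcription factors (Fos, Jun, Egr1, Nr4a1, Npas4) and regulators of signalling or synapses (Arc, Dusp1). Those factors then act on later genes, among them secreted proteins and enzymes of secretory granules. Many IEGs also respond to growth factors, stress and tissue dissociation, so their RNA marks recent stimulation of a cell and not spikes as such.

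Depth and RNA quality were measured in both sets. Cells of the 11 plates had a median of 869546 reads on genes (96834 to 2493904). High cells had more reads than low cells on 6 of 11 plates, with a mean difference of 39193 reads (exact sign-flip permutation p = 0.268, two-sided, adjusted p = 0.446 over 10 measures). They had 224 ± 252 more detected genes (SD, n = 11 plates), higher on 10 plates (exact permutation p = 0.0186, adjusted p = 0.0928). The share of reads from mitochondrial genes was 2.58% ± 0.318 in high and 2.68% ± 0.334 in low cells (exact permutation p = 0.0439, adjusted p = 0.146), and that from ribosomal protein genes 1.03% ± 0.132 and 1.08% ± 0.138 (exact permutation p = 0.0791, adjusted p = 0.198). With the relation to reads and detected genes taken out of the score, 32 genes rose and 15 fell, among them 10 of the 11 and 4 of the 4 genes called with the score as measured. The part of the mitochondrial and ribosomal shares in the results was not tested.

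The sets were cut from the ranked scores of each plate. Its median was 2.80 in high, 2.08 in middle and 1.35 in low cells, and single cells ranged from 0 to 5.05. The lowest score of a high cell was 2.05 to 2.62 on the 11 plates, and the highest score of a middle cell 2.01 to 2.58. At the lower limit, the lowest middle cell of a plate was at 1.58 to 2.05 and the highest low cell at 1.48 to 2.03. The sets thus met at close scores. Cells next to each other in rank are often close in score, so this cannot show whether the cells form separate classes, which was not tested. Over the cells of a plate, the mean of Fos, Fosb, Egr1, Nr4a1, Arc and Npas4 and the mean of Jun, Junb, Ier2 and Dusp1 had a Spearman correlation with a median of 0.419 (0.174 to 0.586 over the 11 plates), a description over cells whose libraries were made on the same plate.

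Fos, which pairs with Jun proteins in the AP-1 factor, was the most abundant of the 10 genes in high cells, with plate means of 186 to 469 CPM (median 346 CPM) against 26.0 to 99.3 CPM (median 58.6 CPM) in low cells. Fos was read in 100% of high and in 69.4% of low cells, so most low cells also held Fos RNA. Fosb, a related AP-1 protein, was at 8.71 to 27.7 CPM (median 14.0 CPM) in high and 0 to 2.92 CPM (median 2.26 CPM) in low cells. Jun was at 82.8 to 179.7 CPM against 43.5 to 77.6 CPM, and Junb at 17.1 to 62.9 CPM against 1.47 to 10.7 CPM. The plate means of the sets, which were chosen by these genes among others, did not overlap for any of the 4 AP-1 genes. The difference in log2(mean CPM+1) was 2.40 for Fos, 2.58 for Fosb, 2.65 for Junb and 1.11 for Jun, which was well above 0 in low cells too.

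**Figure D1:**
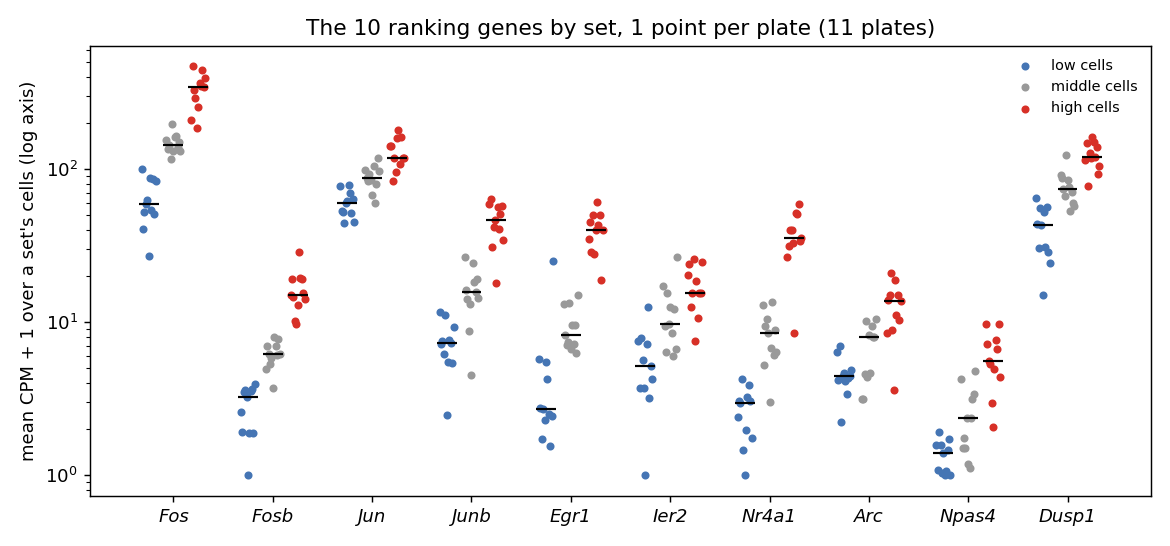
Mean CPM plus 1 (log axis) of the 10 ranking genes in the low, middle and high cells of each of the 11 plates, 1 point per plate with the median as a line. Fos, Jun and Dusp1 had plate medians of 58.6, 59.3 and 42.2 CPM even in low cells, whereas Npas4 was at 0.403 CPM there.

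Egr1, a zinc finger factor, was at 17.9 to 60.2 CPM (median 39.3 CPM) in high and 0.555 to 24.0 CPM (median 1.72 CPM) in low cells, and was read in 89.7% and 19.4% of them. Nr4a1, an orphan nuclear receptor, was at 7.51 to 58.0 CPM against 0 to 3.25 CPM, the largest difference of the 10 genes at 3.80 in log2. Npas4, a factor turned on mainly by calcium entry, had a median of only 4.58 CPM in high cells and was read in 38.4% of them, against 6.90% of low cells. These 3 factors were thus near 0 in most low cells, unlike Fos and Jun. Arc, a regulator of glutamate receptor traffic, was at 2.62 to 20.1 CPM against 1.22 to 5.95 CPM. Ier2 was at 6.52 to 25.0 CPM against 0 to 11.5 CPM, and the MAP kinase phosphatase Dusp1 at 76.6 to 163 CPM against 14.0 to 64.0 CPM. The plates of the sets overlapped for Egr1, Ier2 and Arc and did not overlap for the other 7 genes. The cells were chosen by these genes, so this separation follows in part from the choice. Outside the ranking genes, 2 of 13700 genes (0.0146%) had every high plate above every low plate.

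Each ranking gene was then tested in cells ranked by the other 9 genes, a choice of cells that does not use its own value. Fos rose by 2.12 ± 0.19 in log2 (SE, limma adjusted p = 8.25e-05), with plate means of 179 to 469 CPM in high and 26.0 to 103 CPM in low cells. Egr1 rose by 2.68 ± 0.25 (adjusted p = 0.000206), Nr4a1 by 2.57 ± 0.30 (adjusted p = 0.00372) and Junb by 1.82 ± 0.18 (adjusted p = 0.000517). Npas4 rose by 1.70 ± 0.19 (adjusted p = 0.00150) and Fosb by 1.68 ± 0.22 (adjusted p = 0.00500), Dusp1 by 1.28 ± 0.20 (adjusted p = 0.0177) and Jun by 0.70 ± 0.11 (adjusted p = 0.0227). All 8 were higher on 11 of 11 plates. Ier2 was higher on 9 plates with a difference of 1.06 ± 0.29 (adjusted p = 0.174), and Arc on 8 plates with 0.57 ± 0.25 (adjusted p = 0.408), and neither passed the threshold. Arc was read in 33.1%, Ier2 in 50.6% and Npas4 in 22.3% of the cells, and the part of detection in these results was not tested. With 1 of 2 parts of a plate at each end, Npas4 missed the threshold (limma adjusted p = 0.0529).

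Outside the ranking genes, 13700 genes with a read in at least 10% of the cells were tested with limma on log2(mean CPM+1), with 1 value per plate and set and with plate as a block. At an adjusted p under 0.05, 11 genes rose in high cells (0.0803% of those tested) and 4 fell (0.0292%). The genes of the dense-core granule pathway Pcsk1, Scg2 and Resp18, the early-response genes Csrnp1, Ppp1r15a and Pim3, and Gnai1, Nbl1, Ctnna2, Irf2bpl and Kcnf1 rose. Cpne4, Rorb, Mir124a-1hg and Gm10118 fell. Without adjustment, 868 genes (6.34%) were higher and 537 (3.92%) lower at p under 0.05, and the median difference of all genes was 0.017. Differences are on the scale of log2(mean CPM+1), which understates those of genes at low levels.

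Pcsk1 (chr13:75089826-75134861 in GENCODE M21), the prohormone convertase that cuts neuropeptide precursors, had the smallest p-value of all. Its plate means were 186 to 329 CPM (median 237 CPM) in high cells and 107 to 184 CPM (median 145 CPM) in low cells, with 123 to 204 CPM (median 166 CPM) in the middle set. Every high value lay above every low value, which held for Pcsk1 and Pim3 alone of the 13700 genes (0.0146%). The difference was 0.73 ± 0.064 in log2 (SE, n = 11 plates), 1.66-fold, with a limma adjusted p of 8.55e-05. Pcsk1 was read in 100% of high and 98.3% of low cells, so the sets differed in its level and hardly in whether it was found.

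Scg2, or secretogranin II, a granule protein that is the source of the peptide secretoneurin, was among the abundant RNAs of these cells, at 4262 to 6142 CPM (median 5172 CPM) in high and 3974 to 4570 CPM (median 4252 CPM) in low cells. It rose by 0.27 ± 0.041 in log2 and was higher on 11 of 11 plates, although the ranges of the sets overlapped (adjusted p = 0.0179). Resp18, a protein of neuroendocrine granules, was at 615 to 1028 CPM (median 768 CPM) against 468 to 761 CPM (median 623 CPM), a rise of 0.32 ± 0.055 on 11 of 11 plates (adjusted p = 0.0341). Vgf, a granule protein whose gene responds to neurotrophins, was at 25.1 to 93.8 CPM (median 49.2 CPM) against 18.5 to 35.9 CPM (median 26.3 CPM). Its difference of 0.79 ± 0.16, higher on 10 of 11 plates, missed the threshold (adjusted p = 0.0670).

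Csrnp1, an early-response nuclear factor, was at 3.36 to 12.9 CPM (median 5.45 CPM) in high cells and 0 to 5.41 CPM (median 1.70 CPM) in low cells. The rise of 1.52 ± 0.19 in log2 (adjusted p = 0.00449) was the largest of the 15 genes, and Csrnp1 was read in 37.1% of high and 14.2% of low cells. Ppp1r15a, also known as GADD34, brings a phosphatase to the translation factor eIF2α. It was at 16.6 to 28.5 CPM (median 23.8 CPM) against 7.42 to 20.1 CPM (median 12.0 CPM), a rise of 0.86 ± 0.13 (adjusted p = 0.0179). Pim3, a serine/threonine kinase, was at 28.0 to 49.3 CPM (median 38.8 CPM) against 18.0 to 27.4 CPM (median 24.5 CPM), a rise of 0.72 ± 0.11 (adjusted p = 0.0179). These 3 genes were higher on 11 of 11 plates, as were 29 genes in all (0.212%), and the sets overlapped for Csrnp1 and Ppp1r15a.

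**Figure D2:**
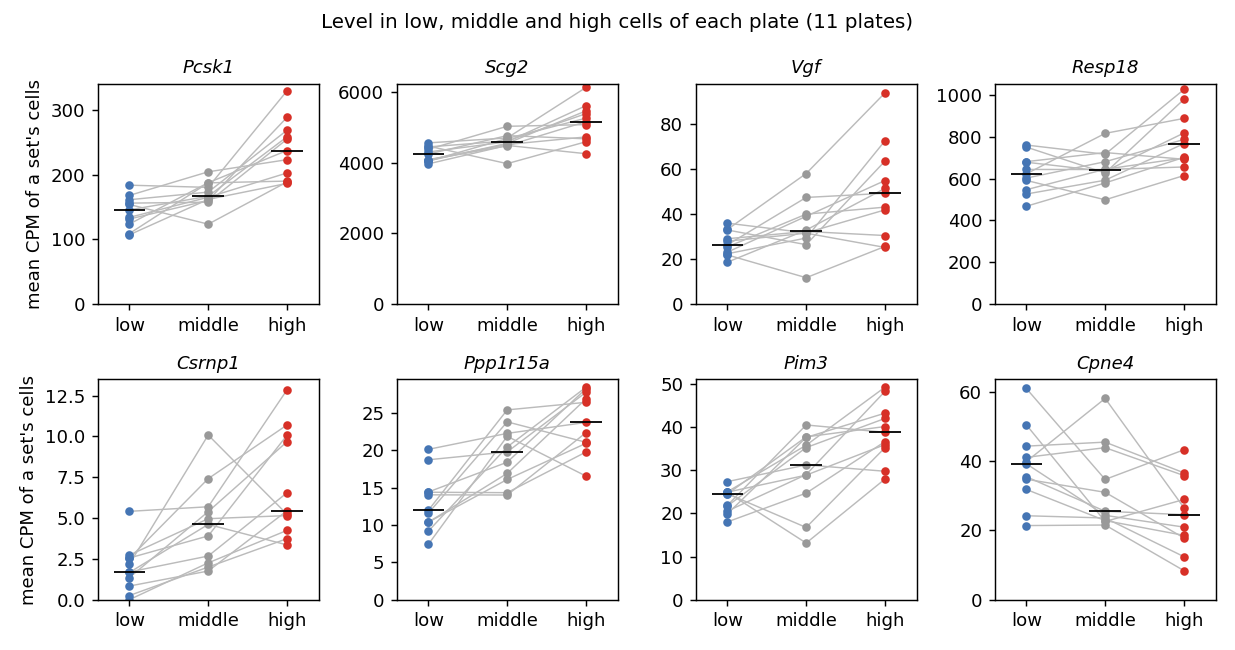
Mean CPM of 8 genes in the low, middle and high cells of each plate, with a grey line per plate (n = 11) and the median as a black line. Pcsk1 in high cells, at 186 to 329 CPM, lay above the low cells on every plate, and Cpne4 went the other way, from a median of 39.3 CPM in low to 24.6 CPM in high cells.

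The remaining 5 genes that rose act in other ways. Gnai1, an inhibitory G protein subunit, was at 178 to 321 CPM (median 227 CPM) against 134 to 290.3 CPM (median 155 CPM), a rise of 0.50 ± 0.081 on 10 plates (adjusted p = 0.0291). Nbl1, a secreted antagonist of bone morphogenetic proteins, was at 59.2 to 233 CPM (median 149 CPM) against 34.6 to 88.4 CPM (median 64.7 CPM), a rise of 1.04 ± 0.18 on 10 plates (adjusted p = 0.0341). Ctnna2, a neuronal catenin that links cadherins to actin, rose by 0.50 ± 0.087 (adjusted p = 0.0369), with 44.5 to 84.3 CPM against 32.3 to 69.8 CPM. The plates of the sets overlapped for all 5. Irf2bpl, a nuclear protein, rose by 0.47 ± 0.082 (adjusted p = 0.0403), with 32.5 to 62.7 CPM against 21.5 to 44.1 CPM. Kcnf1, a silent subunit of voltage-gated potassium channels, rose by 1.27 ± 0.23 on 9 plates, from a median of 2.96 to 8.46 CPM (adjusted p = 0.0451).

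Of the genes that fell, Cpne4, a calcium-dependent membrane-binding copine, was at 8.38 to 43.3 CPM (median 24.6 CPM) in high and 21.4 to 61.0 CPM (median 39.3 CPM) in low cells, lower on 11 of 11 plates, with a difference of -0.68 ± 0.10 (adjusted p = 0.0179). Rorb, an orphan nuclear receptor, was at 7.80 to 78.3 CPM (median 23.1 CPM) against 33.6 to 109 CPM (median 48.4 CPM), lower on 10 plates, with a difference of -0.93 ± 0.17 (adjusted p = 0.0464). The ranges of the sets overlapped widely for both. Mir124a-1hg, a host transcript of a miR-124 gene, had a difference of -0.94 ± 0.15 (adjusted p = 0.0205) and Gm10118 of -1.05 ± 0.18 (adjusted p = 0.0341), from medians of 6.29 and 2.27 CPM in low cells, and both were lower on 11 of 11 plates. Reads were counted without regard to strand, so those of genes on opposite strands of the same stretch cannot be separated. Kcnf1, Mir124a-1hg and Gm10118 fall outside the rule for named genes and were singled out after their values were seen.

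In the middle cells all 15 genes lay between the low and the high sets, against 37.7% of all genes tested. The 15 were chosen on the outer sets, so this order is a description. Of the 15, 6 differed more between low and middle than between middle and high cells, which were Nbl1, Gnai1, Csrnp1, Ppp1r15a, Kcnf1 and Mir124a-1hg, and 9 differed more between middle and high cells. For the last 4 of the 6, the values were larger from low to middle cells (0.98, 0.57, 0.92 and -0.77 in log2) than from middle to high cells (0.54, 0.29, 0.35 and -0.16). Nbl1 had 0.55 and 0.50 and Gnai1 0.27 and 0.23. Among the 9, Pcsk1 and Rorb had the larger step from middle to high cells (0.48 and -0.82, against 0.25 and -0.12).

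The promoters of the called genes were searched for letters of the sites that IEG-related factors bind. Windows came from RefSeq (GRCm38.p6), and the 250 bases before each start were searched on both strands. All 11 genes that rose, 2 of the 4 that fell and 7 of the 10 ranking genes had a window, and Gm10118, Mir124a-1hg, Egr1, Ier2 and Arc did not. The palindrome TGACGTCA, the full cAMP response element that CREB binds, was in the windows of 4 of the 11 genes that rose, of 1 of 7 ranking genes and of neither gene that fell. It was in 3.15% of the 9494 tested genes with a window and in 1.55% of all 32851 windows. Among genes at an unadjusted p under 0.05 it was in 27 of 634 higher genes (4.26%) and 6 of 408 lower genes (1.47%). These shares are a description with no test. The 5 sites are shown to let the called genes that hold the palindrome be compared with Dusp1, on the strand of the gene with the palindrome in capitals.
Pcsk1: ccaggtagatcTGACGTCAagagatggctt
Scg2: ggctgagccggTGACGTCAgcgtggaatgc
Ppp1r15a: cgcctctccggTGACGTCAgcac
Irf2bpl: gagcatggcggTGACGTCAgcgctccgccc
Dusp1: ggtagggcgggTGACGTCAccgcccggtca

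The stretch of Pcsk1 lies at chr13:75089768-75089797 on the plus strand, with the palindrome beginning 78 bases before the start that RefSeq's window uses. Those of Scg2 (chr1:79440076-79440105), Ppp1r15a (chr7:45526269-45526291), Irf2bpl (chr12:86884826-86884855) and Dusp1 (chr17:26508597-26508626) are on the minus strand, with the palindrome beginning 68, 12, 30 and 143 bases before RefSeq's start. GENCODE M21 places other starts for all but Ppp1r15a. By these the palindrome begins 47 bases before Pcsk1 and 46 before Irf2bpl. It lies within the gene for Scg2 and Dusp1, 26 and 53513 bases after the start. The AP-1 letters TGANTCA were in the windows of Csrnp1 and Rorb among the 13 called genes with a window, in 0 of 7 ranking genes and in 4.94% of tested genes. The EGR letters GCGNGGGCG were in Gnai1, Pim3 and Rorb and in the ranking genes Fosb and Nr4a1 (10.9% of tested genes), and the NR4A letters AAAGGTCA in none of the called or ranking genes (1.01%). A match of letters does not show that a factor binds there.

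IEGs that were not used in the ranking were taken from lists, read here against the shares of all genes given above, 6.34% higher and 3.92% lower at an unadjusted p under 0.05. The signalling IEGs had 13 higher and 0 lower of 25 tested (of 32), with a median difference of 0.37. Ppp1r15a and Pim3 rose at the adjusted threshold. Gadd45b, a stress-response regulator, was at a median of 4.70 against 0.536 CPM in high and low cells (1.42 ± 0.32, adjusted p = 0.0972). Plk2, a kinase that acts on synapses, was at 63.5 against 48.5 CPM (0.42 ± 0.11, adjusted p = 0.161), Sik1, a kinase that holds back CREB coactivators, at 4.72 against 2.24 CPM (0.94 ± 0.26, adjusted p = 0.188), and Rrad, a small GTPase that inhibits calcium channels, at 6.24 against 1.87 CPM (1.25 ± 0.35, adjusted p = 0.191). These 4 missed the adjusted threshold.

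Other AP-1 and bZIP factors had 5 higher and 0 lower of 12 tested (of 16), with a median difference of 0.22, and none passed the adjusted threshold. Jund, an AP-1 member that is also present at rest, was at a median of 119 against 96.2 CPM (0.24 ± 0.060, adjusted p = 0.137). The small Maf proteins Mafk and Maff differed by 0.49 (adjusted p = 0.145) and by 0.69 (adjusted p = 0.220), Nfil3 by 0.68 (adjusted p = 0.289) and Fosl2 by 1.02 (adjusted p = 0.333). Other zinc finger, nuclear receptor and related early factors had 5 higher and 2 lower of 17 tested (of 30), with a median difference of 0.26, and of these Csrnp1 rose. Per1, a clock gene that CREB also turns on, was at 21.0 to 29.6 CPM (median 24.9 CPM) against 11.9 to 24.7 CPM (median 17.2 CPM), with a difference of 0.58 ± 0.11 on 10 of 11 plates (adjusted p = 0.0591). Nr4a3, a relative of Nr4a1, was read in 18.1% of high and 6.47% of low cells (0.83 ± 0.17, adjusted p = 0.0670). Klf6 (0.26, adjusted p = 0.203) and Btg2 (0.66, adjusted p = 0.396) were higher at the unadjusted threshold only, and Bcl6 (-0.35, adjusted p = 0.393) lower.

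The MAP kinase phosphatases and other brakes of that pathway had 4 higher and 1 lower of 15 tested (of 18), with a median difference of 0.047, and none passed the adjusted threshold. Dusp6, which acts on ERK, was at a median of 9.97 against 3.47 CPM (1.24 ± 0.31, adjusted p = 0.147) and Dusp14 at 6.84 against 2.40 CPM (1.04 ± 0.25, adjusted p = 0.131). Spry4 differed by 0.55 (adjusted p = 0.330), Dusp4 by 0.80 (adjusted p = 0.397) and the Ras regulator Nf1 by -0.22 (adjusted p = 0.439). The kinases, channels and factors upstream of the IEGs (calcium, CREB and SRF signalling) had 4 higher and 2 lower of 45 tested (of 46), with a median difference of 0.043, near the shares of all genes. By p-value the first of these were Atf2 (-0.22 ± 0.065, adjusted p = 0.219) and Crtc1, a CREB coactivator (0.23 ± 0.085, adjusted p = 0.329).

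**Figure D3:**
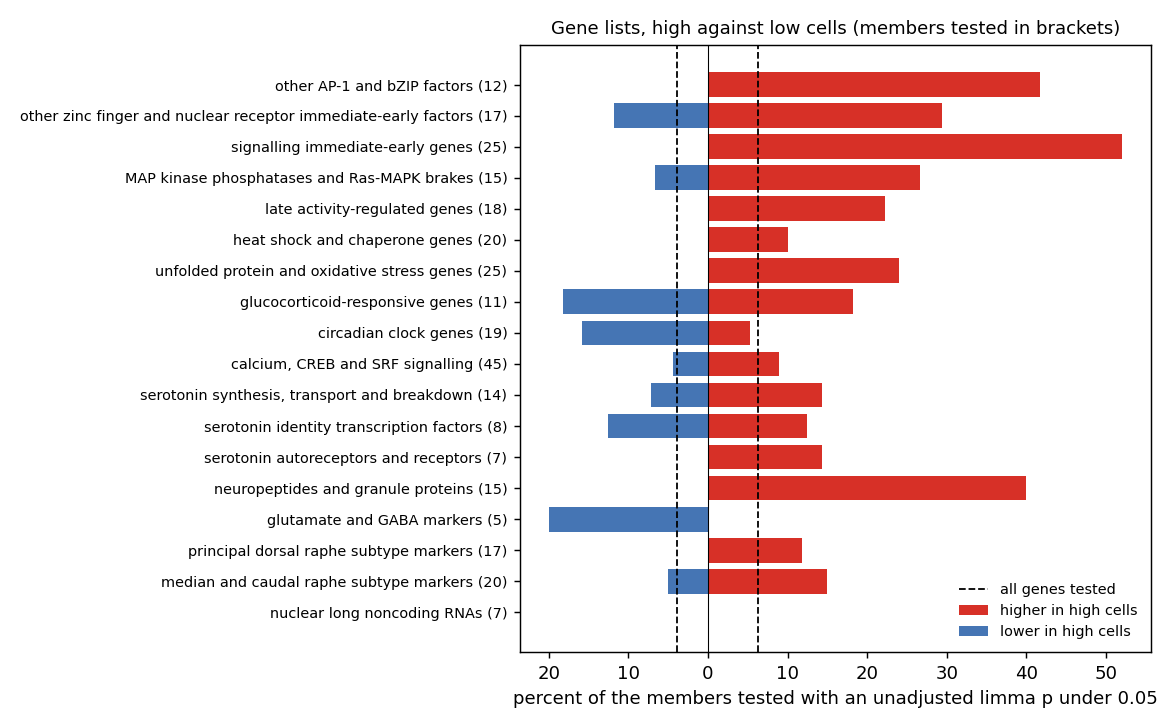
Percent of the tested members of each list with at least 5 members tested that had an unadjusted limma p under 0.05, higher (right) or lower (left) in high cells, with the same over all 13700 genes as dashed lines (6.34% and 3.92%). The signalling IEGs, with 13 of 25 members higher, and the other AP-1 factors, with 5 of 12, reach far to the right, and the nuclear noncoding RNAs have no member past this threshold.

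Late activity-regulated genes follow the first factors and act in secretion and at synapses. They had 4 higher and 0 lower of 18 tested (of 35), with a median difference of 0.15. Pcsk1 and Scg2 rose, and Vgf and Lingo1, which limits myelination and neurite growth (0.29 ± 0.11, adjusted p = 0.333), were the other 2. The opioid peptide gene Pdyn (0.81, adjusted p = 0.630) and Nptxr (0.10, adjusted p = 0.645) followed by p-value. Neuropeptides and granule proteins, a list that shares Pcsk1, Scg2 and Vgf with the former, had 6 higher and 0 lower of 15 tested (of 30), with a median difference of 0.14. Beside the shared genes, Scg3, which sorts granule proteins (154 against 137 CPM, 0.17 ± 0.054, adjusted p = 0.243), the trimming enzyme Cpe (973 against 882 CPM, 0.11 ± 0.037, adjusted p = 0.306) and the peptide gene Nmb (0.76 ± 0.27, adjusted p = 0.314) were higher at the unadjusted threshold only.

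Stress genes were examined because dissociation can turn on IEGs. Heat shock and chaperone genes had 2 higher and 0 lower of 20 tested (of 22), with a median difference of 0.013. The higher ones were Dnajb1, a partner of Hsp70, at a median of 174 against 133 CPM (0.29 ± 0.063, adjusted p = 0.0929), and the inducible Hsp70 gene Hspa1a, at 13.2 against 9.19 CPM (0.39 ± 0.14, adjusted p = 0.314). Genes of the unfolded protein response and of oxidative stress had 6 higher and 0 lower of 25 tested (of 27), with a median difference of 0.090. Xbp1, a factor that drives the response of the endoplasmic reticulum, was at 350.4 to 526 CPM (median 430.1 CPM) against 296 to 432 CPM (median 346 CPM), a difference of 0.31 ± 0.058 (adjusted p = 0.0521). Hspa5, or BiP, was at a median of 681 against 558 CPM (0.26 ± 0.052, adjusted p = 0.0650). Calr, Dnajb9, Pdia3 and Pdia6, which help proteins fold in the endoplasmic reticulum, differed by 0.22, 0.24, 0.12 and 0.14 (adjusted p = 0.105, 0.147, 0.238 and 0.255). The part of dissociation in the ranking was not tested.

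Glucocorticoid-responsive genes had 2 higher and 2 lower of 11 tested (of 15), with a median difference of -0.10. The receptors Nr3c1 (-0.19, adjusted p = 0.378) and Nr3c2 (-0.73, adjusted p = 0.244) were lower at the unadjusted threshold, and Per1 and Sgk1 (0.34, adjusted p = 0.487), which also stand in IEG lists, higher. Circadian clock genes had 1 higher and 3 lower of 19 tested (of 20), with a median difference of 0.036. Rorb fell, Arntl (-0.46, adjusted p = 0.343) and Per3 (-0.33, adjusted p = 0.425) were lower at the unadjusted threshold, and Per1 was the higher one. Nuclear noncoding RNAs had 0 higher and 0 lower of 7 tested, with a median difference of -0.062, with Malat1 at a median of 3462 against 3547 CPM.

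The genes that define serotonin neurons were high in both sets. The summed level of Tph2, Slc6a4, Slc18a2 and Fev was 17423 ± 1167 CPM in high and 15532 ± 1982 CPM in low cells (SD, n = 11 plates), higher on 10 plates (exact permutation p = 0.00488, adjusted p = 0.0488 over 10 measures). The sum was over 50 CPM in 232 of 232 high and 231 of 232 low cells. Tph2, the enzyme of serotonin synthesis, was at 9075 to 12527 CPM (median 10495 CPM) against 6757 to 11143 CPM (median 9371 CPM), a difference of 0.19 ± 0.055 (adjusted p = 0.200). Slc18a2, the vesicular transporter, differed by 0.18 (adjusted p = 0.265), the identity factor Fev by 0.15 (adjusted p = 0.236) and Slc6a4, the plasma membrane transporter, by 0.11 (adjusted p = 0.494). None of the 4 passed the threshold adjusted over 13700 genes, a stricter adjustment than that of the sum over 10 measures. Their unadjusted limma p was 0.00299 for Tph2, 0.00529 for Fev, 0.00773 for Slc18a2 and 0.0567 for Slc6a4. Synthesis, transport and breakdown genes had 2 higher and 1 lower of 14 tested, with a median difference of -0.045, with Pts, an enzyme of the cofactor tetrahydrobiopterin, lower (-0.14, adjusted p = 0.391). Identity factors had 1 higher and 1 lower of 8 tested (of 13), with a median difference of 0.14, with En1 lower (-0.33, adjusted p = 0.462). Serotonin receptors had 1 higher and 0 lower of 7 tested (of 11), with a median difference of -0.11, with Htr1f higher (0.71 ± 0.17, adjusted p = 0.132). The autoreceptor Htr1a was at a median of 98.5 against 106 CPM (0.19 ± 0.12, adjusted p = 0.642).

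Subtype markers of the pDR had 2 higher and 0 lower of 17 tested (of 25), with a median difference of -0.056, with Cdh6 (1.10, adjusted p = 0.208) and Ret (1.04, adjusted p = 0.391) higher. Those of the median and caudal raphe had 3 higher and 1 lower of 20 tested (of 25), with a median difference of 0.18. The cannabinoid receptor Cnr1 was at a median of 18.7 against 4.32 CPM and higher on 11 of 11 plates (1.41 ± 0.31, adjusted p = 0.0916), and the relaxin receptor Rxfp1 was at 17.1 against 6.79 CPM (1.40 ± 0.34, adjusted p = 0.129). Zfp536 (0.84, adjusted p = 0.403) was the other higher marker and Chrna4 (-0.60, adjusted p = 0.265) the lower one. Glutamate and GABA genes had 0 higher and 1 lower of 5 tested (of 9), with a median difference of -0.036, and Slc17a8, the vesicular glutamate transporter of many of these neurons, was at a median of 131 against 109 CPM (0.039 ± 0.28, adjusted p = 0.979).

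Since a set's value is a mean over cells of several subtypes, more cells of one subtype and more RNA per cell cannot be told apart from that mean alone. The 709 cells were therefore clustered without the IEG, late, stress, glucocorticoid and clock genes and with each plate centred, which gave 12 clusters of 9 to 115 cells, called here by number and leading genes. High cells made up 56.9% of cluster 4 (72 cells, led by Cckar, Pcdh11x and Rgs10), 48.5% of cluster 5 (68 cells, led by Pter, C1ql3 and Stxbp6, and 36 of them from 1 plate) and 50.0% of cluster 11 (22 cells, led by Tecrl, P2ry1 and Tacr3). They made up 15.7% of cluster 1 (115 cells, led by Rorb, Cpne9 and Gal), 16.3% of cluster 6 (49 cells, led by Npas1, Nell1 and Fam107b) and 14.3% of cluster 9 (42 cells, led by Piezo2, Ctla2a and Chrm2). In cluster 9, 23 cells were middle and 31.0% were low, whereas 63.3% of cluster 6 were low. Of the 9 cells of cluster 12, 8 were low, 1 middle and 0 high.

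**Figure D4:**
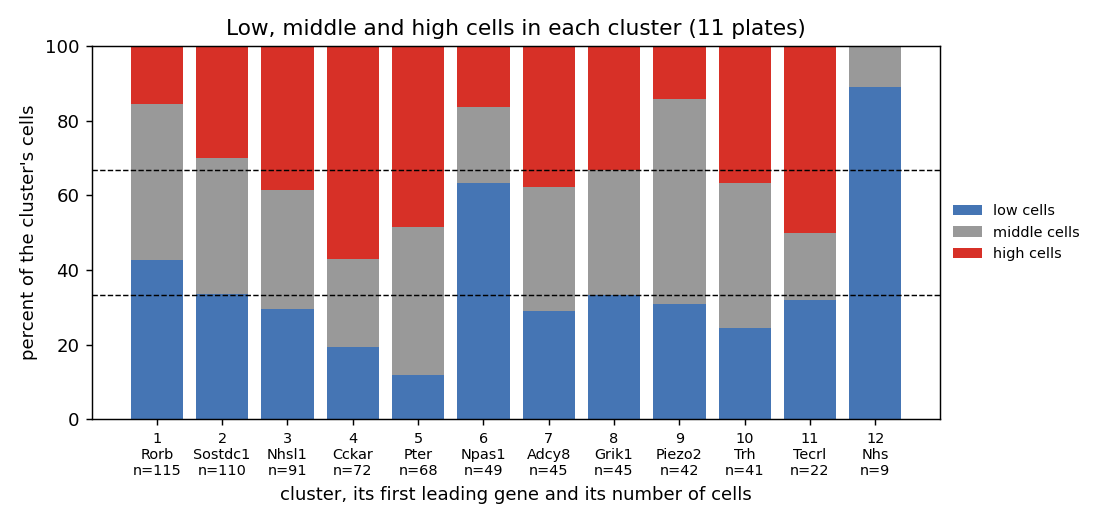
Percent of the low, middle and high cells in each of the 12 clusters of the 709 cells. Clusters 4, 5 and 11 hold 56.9%, 48.5% and 50.0% high cells, and clusters 1, 6 and 9 hold 15.7%, 16.3% and 14.3%.

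The score of a cluster was compared with that of the other cells of the same plate, for plates with at least 3 cells of the cluster, a comparison added after the data were seen. Of 9 clusters tested, the score of cluster 1 differed by -0.21 ± 0.23 (SD, n = 11 plates), lower on 9 plates (exact permutation p = 0.00977, adjusted p = 0.0879). That of cluster 4 differed by 0.41 ± 0.40 and was higher on 7 of 8 plates (exact permutation p = 0.0391, adjusted p = 0.117), and that of cluster 6 by -0.63 ± 0.40, higher on 1 of 7 plates (exact permutation p = 0.0312, adjusted p = 0.117). None of the 9 passed the threshold after adjustment. The smallest possible p of this test grows as plates become fewer. With 7 or 8 plates no cluster could pass the adjusted threshold by itself, so no conclusion is drawn for those clusters. Clusters 5 and 11, with only 4 plates each to compare, and cluster 12, with 0, were not tested. Rorb was at 133 CPM in cluster 1 and 26.6 CPM in the median cluster. In cluster 4 Pcsk1 was at 322 CPM against 199.7 CPM in the median cluster, Resp18 at 1238 against 655 CPM and Scg2 at 6580.3 against 4515 CPM. Low cells made up 42.6% of cluster 1, which was the highest for Rorb, and 63.3% of cluster 6, which was the lowest for Rorb at 1.47 CPM. Cluster 12, with 8 low cells of 9, was the lowest for Csrnp1, Ppp1r15a and Kcnf1 (0 CPM each). It was also lowest for Pim3 (1.57 CPM), Irf2bpl (5.52 CPM) and Scg2 (2101 CPM), and highest for Gm10118 (14.0 CPM) and Mir124a-1hg (7.43 CPM). Resp18 (1043 CPM) and Gnai1 (312 CPM), which rose in high cells, were second highest in cluster 12. The calls without the cells of cluster 12 were not tested.

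When the score was centred within each cluster before the ranking, the gap between the high and low cells of a cluster, summed over the 12 clusters, went from 146 to 40 cells and was smaller in 9 of them. Cluster 1 then had 35 high and 37 low cells and cluster 4 had 25 and 22, while cluster 5 (22 and 15), cluster 7 (19 and 12), cluster 8 (13 and 18) and cluster 10 (12 and 18) remained uneven. In this ranking 3 genes rose (0.0219%) and 0 fell at a limma adjusted p under 0.05, with 1062 genes at an unadjusted p under 0.05. Csrnp1 rose by 1.50 (adjusted p = 0.0263) and Ppp1r15a by 0.88 (adjusted p = 0.0263), close to their values in the first ranking, and Vgf rose by 0.82 (adjusted p = 0.0263). Pcsk1 was higher by 0.40, no longer past the threshold (adjusted p = 0.224). Scg2 (0.14), Resp18 (0.19), Pim3 (0.47), Gnai1 (0.37), Irf2bpl (0.29), Ctnna2 (0.34), Nbl1 (0.56) and Kcnf1 (0.41) kept a positive difference, with adjusted p from 0.187 to 0.701. Cpne4 (-0.34), Rorb (-0.51), Mir124a-1hg (-0.81) and Gm10118 (-0.79) kept a negative one, with adjusted p from 0.187 to 0.577. At an unadjusted p under 0.05, the signalling IEGs then had 10 higher and 0 lower, the other AP-1 factors 5 and 0, and the zinc finger and related factors 7 and 0, with medians of 0.24, 0.20 and 0.31, where all genes had 637 and 425 of 13700 and a median of 0.017.

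**Figure D5:**
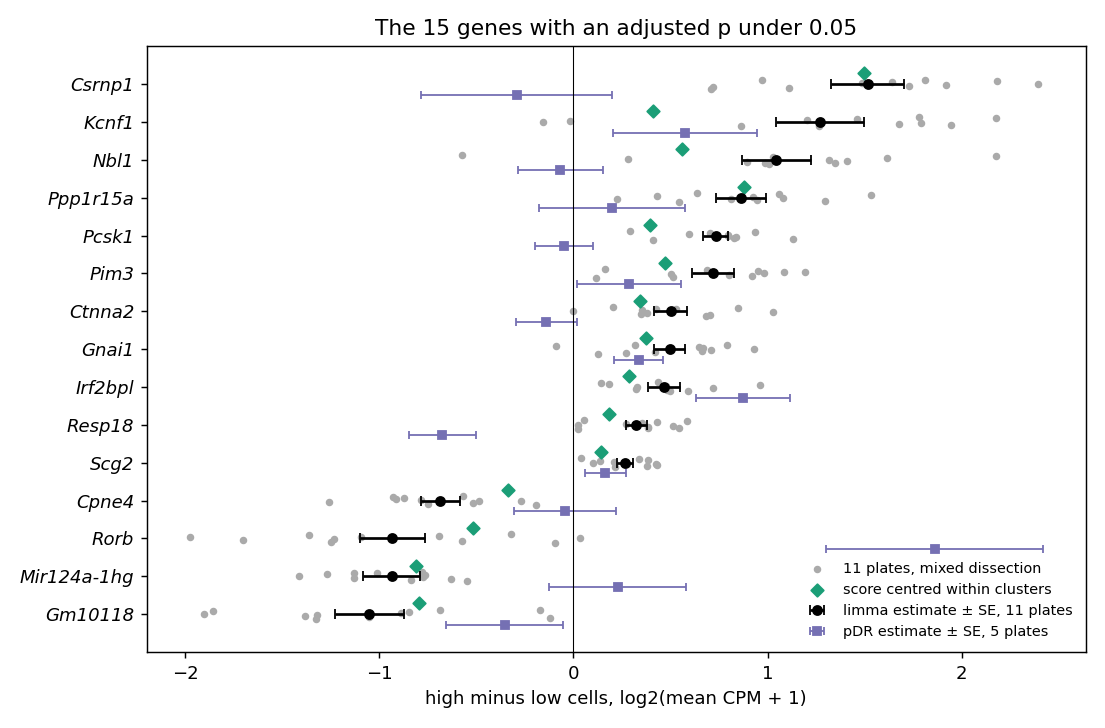
High minus low difference in log2(mean CPM+1) of the 15 called genes, with the values of the 11 plates, the limma estimate ± SE, the ranking with the score centred within clusters and the 5 pDR plates. Csrnp1 and Ppp1r15a stayed near their estimates after centring (1.50 and 0.88), Pcsk1 went from 0.73 to 0.40, and 7 of the 15 (Csrnp1, Nbl1, Pcsk1, Ctnna2, Resp18, Rorb and Mir124a-1hg) lie on the other side of 0 in the pDR plates.

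With the score of Fos, Fosb, Egr1, Nr4a1, Arc and Npas4 alone, 45 genes rose and 10 fell, of which 6 and 2 were also called with all 10 genes. Vgf rose by 1.23 (limma adjusted p = 0.0131), Per1 by 0.74 (adjusted p = 0.0166) and Nr4a3 by 0.87 (adjusted p = 0.0138). With the score of Jun, Junb, Ier2 and Dusp1, 1 gene rose, Nbl1, and 0 fell, with 1124 genes at an unadjusted p under 0.05. Vgf then differed by 0.15 (adjusted p = 0.854) and Pcsk1 by 0.38 (adjusted p = 0.193). The difference between these rankings was not tested.

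Markers of other cells were followed in both sets. All 5 oligodendrocyte markers were read in both sets, and their sum was 39.7 to 265 CPM (median 59.3 CPM) in high and 37.6 to 211 CPM (median 62.1 CPM) in low cells, higher on 5 of 11 plates (exact permutation p = 0.510, adjusted p = 0.566). A sum over 50 CPM was found in 78 high and 70 low cells. The sums of 5 astrocyte, 3 microglia, 3 endothelial and 3 pericyte markers had median plate values of at most 1.61 CPM in either set, and 1 microglia marker had no read in low cells. On single plates, astrocyte markers reached 50.2 CPM in high and 5.99 CPM in low cells. Pericyte markers reached 5.41 CPM in high and 68.3 CPM in low cells. Of longer lists, oligodendrocyte (4 tested), oligodendrocyte precursor (1), astrocyte (3), microglia (1) and endothelial and pericyte markers (1) had 0 members past the unadjusted threshold in the first ranking. Ependymal and other neuron markers had 0 members read in enough cells to be tested. With the score centred within clusters, the oligodendrocyte markers had a median difference of 1.03, against 0.017 for all genes, with 1 higher and 0 lower. The rest had 0 past the threshold there too. The part of these markers in the calls of that ranking was not tested. The 224 cells over 50 CPM of the oligodendrocyte, astrocyte, microglia or endothelial sum were then left out, a filter that did not use pericyte markers. In the remaining 485 cells 4 genes rose and 0 fell. The 4 were Pcsk1 (0.86, limma adjusted p = 0.000472), Ppp1r15a (0.98, adjusted p = 0.0226), Xbp1 (0.30, adjusted p = 0.0226) and Gnai1 (0.46, adjusted p = 0.0317).

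The cells of the pDR plates, which the choice of high and low cells did not use, were ranked in the same way, with 95 high and 95 low cells. Of 14096 genes tested, 0 rose (0%) and 0 fell (0%) with limma at an adjusted p under 0.05, 1026 had an unadjusted p under 0.05, and edgeR on recovered reads called 0 and gave 538 at an unadjusted p under 0.05. The score was low on 3 of these plates, with a mean of 0.689 on SER25, 0.652 on SER39 and 0.596 on SER40, against 1.66 on SER12, 2.45 on SER13 and 1.66 to 2.26 on the 11 plates. Fos was at 126, 214, 18.2, 17.9 and 19.1 CPM in the high cells of SER12, SER13, SER25, SER39 and SER40.

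Vgf was higher on 5 of 5 pDR plates, with 44.0, 78.8, 48.1, 38.5 and 57.3 CPM in high and 38.9, 57.4, 18.7, 12.1 and 13.2 CPM in low cells, in the same order. Its difference was 1.12 ± 0.27 (SE, limma unadjusted p = 0.00298, adjusted p = 0.659). Irf2bpl was higher on 5 of 5 plates too (0.87, limma unadjusted p = 0.00620), as were Dnajb1 (0.54, limma unadjusted p = 0.000841), Nfil3 (1.13, limma unadjusted p = 0.00709), Crem (1.08, limma unadjusted p = 0.00610), Btg2 (1.70, limma unadjusted p = 0.00886) and Scg2 (0.16, limma unadjusted p = 0.153). These are some of the named genes, and the share of all genes higher on 5 of 5 plates was not counted. Nptxr and Cry2, which did not pass the unadjusted threshold on the 11 plates, were also higher on 5 of 5. Of the 15 genes called on the 11 plates, 7 had the other sign in the pDR plates, which were Pcsk1 (-0.048, limma unadjusted p = 0.755), Csrnp1 (-0.29, limma unadjusted p = 0.569), Nbl1 (-0.066, limma unadjusted p = 0.766), Ctnna2 (-0.14, limma unadjusted p = 0.395), Mir124a-1hg (0.23, limma unadjusted p = 0.532), Resp18 (-0.68, limma unadjusted p = 0.00385) and Rorb (1.86, limma unadjusted p = 0.00903). Ppp1r15a differed by 0.20 (limma unadjusted p = 0.613). None of these passed the adjusted threshold. At an unadjusted p under 0.05, 3 of 11 other AP-1 factors, 2 of 18 zinc finger and related factors and 4 of 23 signalling IEGs were higher and 0, 1 and 0 lower, where all genes had 624 higher and 402 lower.

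The high minus low difference itself was compared between the 11 and the 5 plates for 13824 genes, and differed for 2 (0.0145%), of which 1 is described here. Resp18, higher in high cells of the 11 plates, was lower on 5 of 5 pDR plates, with 721, 656, 535, 814 and 743 CPM in high and 889, 718, 748, 1786 and 1866 CPM in low cells of SER12, SER13, SER25, SER39 and SER40. The gap between the dissections was 1.00 (limma adjusted p = 0.0253). For Rorb the gap was -2.79 (adjusted p = 0.0716), for Pcsk1 0.78 (adjusted p = 0.102) and for Csrnp1 1.81 (adjusted p = 0.293), and these were not shown to differ. Rorb was higher in high cells on 5 of 5 pDR plates.

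Leaving out single plates moved the calls. Pcsk1 and Csrnp1 rose with each of the 11 plates left out, Ppp1r15a with 8 of the 11 and Irf2bpl with 1, and Cpne4 fell with 7. Scg2 rose with 6, Pim3 and Gnai1 with 5, Resp18 with 4, and Nbl1, Kcnf1 and Ctnna2 with 3. Mir124a-1hg fell with 4 and Rorb and Gm10118 with 3. Without SER50, SER51 or SER64, 2 genes rose and 0 fell. Over the 19 other settings, Ppp1r15a was called in 16, Pcsk1 in 15, Cpne4 in 13 and Scg2 in 12, and Csrnp1 in 11 of the 18 that tested it. Resp18 and Pim3 were called in 11 of the 19, Gnai1 in 9, Irf2bpl, Rorb, Nbl1 and Ctnna2 in 7 and Kcnf1 in 6. Mir124a-1hg was called in 7 and Gm10118 in 4 of 18 settings.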

How the data were processed

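Single tdTomato-positive cells were measured on 11 plates (1056 labelled wells) and 5 pDR plates (480), and 999 cells are in the deposited table. The authors aligned reads to mm10 with STAR 2.6.1a, counted them with HTSeq 0.11.2 without strand, after bcl2fastq 2.19.0.316 (versions as in the submitters' processing notes), removed Y chromosome genes and deposited CPM, not log-transformed. 100% of the values above 0 were whole multiples of 1 read within 0.001, so reads were recovered. There are no molecular identifiers, and read counts hold amplification noise.

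For each plate and set, log2(mean CPM+1) was fitted with limma 3.58.1 (R 4.3.3), with plate as a block and an intensity trend, and Benjamini-Hochberg adjustment over all genes with a read in at least 10% of the cells. edgeR 4.0.16 was run on recovered reads as an alternative. Covariates had exact two-sided sign-flip tests over the 11 plates, whose smallest possible p is 0.000977. Clusters were made from 2000 variable genes, 20 components, 20 neighbours and the Louvain method at resolution 1. Doublets were not called. The fit was run on simulated data without a ranking score, subtypes or shared animals. That run cannot test these parts of the design.

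The cells, gene lists and tests were chosen with earlier results of these data known. Named genes were the ranking genes, the called genes with a mean of at least 20 CPM and the same sign on at least 10 of 11 plates (up to 15 each way, without Gm and Rik symbols), up to 6 genes of each list by p-value, and Tph2, Slc6a4, Slc18a2 and Fev. Gene coordinates are from GENCODE M21. Alternatives were other pseudocounts, filters, summaries, tests, set sizes and scores, thinned cells, cells without markers of other types, and each plate left out; 3 of them were added after the data were seen. Some single-gene results are not reported here.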

Additional observations from a re-analysis of the deposited data

Results flagged for a closer look

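In the pDR plates, 2 of 30 genes checked had 1 plate far from the other 4, where chance gives about 1 in 20. Ppp1r15a was at -1.50 in log2, high minus low, on SER25, and Junb, a ranking gene, at 3.90 on SER39. The high minus low difference of Resp18 was 1.00 higher on the 11 plates than on the 5 pDR plates, past the adjusted threshold of limma's test of the difference.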

How the results depend on the processing

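Plates were the replicates, and the labels give no replicate numbers beyond them. The main fit has plate as a block, and without it 5 genes rose and 1 fell in high cells, against 11 and 4. Counts that rose and fell were 10 and 2 with a pseudocount of 0.1 CPM, 5 and 2 with 10 CPM, 3 and 1 without the filter, 23 and 12 with a mean of at least 5 CPM, 59 and 9 with the mean over cells of log2(CPM+1), and 6 and 3 with edgeR on recovered reads under both TMM and RLE. They were 19 and 9 with 1 of 4 parts of a plate at each end, 8 and 2 with 1 of 2 parts, 19 and 7 with z-scores, 45 and 10 with the score of Fos, Fosb, Egr1, Nr4a1, Arc and Npas4, 1 and 0 with that of Jun, Junb, Ier2 and Dusp1, and 32 and 15 with reads and detected genes taken out of the score. Cells thinned to 200000 reads (5 cells left out) gave 23 and 9, the score centred within clusters 3 and 0, and cells without markers of other types 4 and 0. The combinations chosen after seeing the data gave 2 and 0 (centred, with the mean over cells of logs) and 2 and 0 (centred, with the 6 genes from Fos to Npas4). With each plate left out, 2 to 22 genes rose and 0 to 10 fell. The pDR plates gave 0 calls in every setting run, including the plates with a mean score over 1, and the gap between dissections was called for 1 higher and 2 lower genes with the mean over cells of logs. Npas4 under the other 9 genes had a difference of 1.17 with 1 of 2 parts of a plate at each end (limma adjusted p = 0.0529). Over the alternatives on the 11 plates no called gene changed its sign, but 7 of the 15 had the other sign in the pDR plates. The cause of these shifts was not tested. Most calls lie near the threshold, and genes read in few cells had wide errors.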
